A study of Mus musculus with 12 samples.

Results

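The 8 genes described here are markers of mouse pluripotent cells: Eras, Tdgf1, Fgf4, Dppa2, Dppa4, Utf1, Dppa5a and Khdc3. They were taken as the genes behind all 13 non-control array probes whose transcript accession belongs to one of these 8 genes, of 20660 genes and 55681 probes on the array. The samples were 12 mouse iPS cell clones with 1 Agilent 1-colour array each, 6 Aid+/+ (967B2, 967B4, 967B6, 979B1, 979B3, 979B4) and 6 Aid-/- (979F1, 979F2, 979F3, 981E1, 981E4, 981E5), and the study asked whether loss of Aid, a cytidine deaminase, changes reprogrammed cells. All clones were male, of a mixed C57BL6, DBA and 129S4 background, carried a Nanog-GFP reporter, were made from embryonic fibroblasts with retroviral reprogramming factors, and were harvested at passage 6 from gelatin after earlier culture on feeder cells. Growth medium held LIF and puromycin. Each clone is the progeny of 1 picked colony, and the study kept clones in which the retroviral transgenes were silenced, so p-values measure the spread between selected clones. In the Aid-/- mice that gave the fibroblasts, the Aid gene was disrupted by a drug resistance cassette, and all their cells carry that allele.

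Clone names share a number and a letter in 4 series of 3: 967B and 979B (Aid+/+), 979F, and the series of 981E1, 981E4 and 981E5, called the 981E1 series here (Aid-/-). Slide 1 carried the 967B arrays, slide 2 the 979F arrays and slide 3 the 6 others. Both genotypes were therefore present only on slide 3 and, judging by clone names, in experiment 979. Within experiment 979 the genotypes lay on different slides (2 and 3), and on slide 3 they were different series. Genotype cannot be told apart from series in either comparison, nor from slide within experiment 979. Elsewhere genotype, series and slide cannot be told apart. Each array had 31677 to 33647 probes well above background, a 75th percentile of 418 to 509 intensity units and 0 saturated spots. Clones 967B4 and 981E5 stood apart from the other clones at several of the genes below, and values without them are given where they touch a result.

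Pluripotent mouse cells are held in the undifferentiated state by a network around Oct3/4, Sox2 and Nanog, and a set of transcripts found mainly in ES cells and early germ cells serves to recognise it. Eras is a constitutively active Ras-like GTPase that acts through PI3 kinase. Tdgf1 (Cripto) is the membrane-anchored co-receptor of Nodal, and Fgf4 is the secreted growth factor through which ES cells stimulate their own ERK pathway. Dppa2 and Dppa4 are SAP-domain chromatin proteins that act as a heterodimer at bivalent promoters and at genes of the early embryo and the germ line, and Utf1 is a chromatin-bound factor of bivalent genes. Dppa5a (Esg1) and Khdc3 (Ecat1) carry KH-type domains, and Khdc3 (Filia) belongs to the subcortical maternal complex of the oocyte and takes part in genome stability in ES cells.

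Promoters of such genes are a common readout of DNA methylation in reprogramming, which is why their sequence is shown. The RefSeq promoter table of the assembly GRCm38.p6 held 5 of the 8 genes, and the 250 bases before each start are printed 5′ to 3′ with every CG pair in capitals.
Eras (chrX:7928608-7928857, minus strand): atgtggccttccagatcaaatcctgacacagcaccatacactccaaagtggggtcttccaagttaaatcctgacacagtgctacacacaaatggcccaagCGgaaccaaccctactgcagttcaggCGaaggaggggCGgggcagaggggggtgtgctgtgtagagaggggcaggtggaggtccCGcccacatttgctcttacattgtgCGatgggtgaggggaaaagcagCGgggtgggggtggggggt
Tdgf1 (chr9:110946159-110946408, minus strand): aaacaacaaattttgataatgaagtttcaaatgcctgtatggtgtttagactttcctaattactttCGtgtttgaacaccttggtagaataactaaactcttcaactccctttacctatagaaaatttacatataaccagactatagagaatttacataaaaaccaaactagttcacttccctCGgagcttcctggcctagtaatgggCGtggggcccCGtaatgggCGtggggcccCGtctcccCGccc
Fgf4 (chr7:144861136-144861385, plus strand): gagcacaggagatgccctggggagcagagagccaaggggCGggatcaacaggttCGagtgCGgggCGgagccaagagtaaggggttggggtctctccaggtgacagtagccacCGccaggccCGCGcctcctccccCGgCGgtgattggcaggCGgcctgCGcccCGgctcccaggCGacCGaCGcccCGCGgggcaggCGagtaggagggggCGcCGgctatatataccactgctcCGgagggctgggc
Utf1 (chr7:139943606-139943855, plus strand): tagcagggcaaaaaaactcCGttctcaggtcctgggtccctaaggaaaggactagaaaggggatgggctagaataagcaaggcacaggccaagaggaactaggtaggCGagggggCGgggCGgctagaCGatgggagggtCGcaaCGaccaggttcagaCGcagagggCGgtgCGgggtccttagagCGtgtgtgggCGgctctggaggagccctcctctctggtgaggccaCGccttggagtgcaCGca
Khdc3 (chr9:73102148-73102397, plus strand): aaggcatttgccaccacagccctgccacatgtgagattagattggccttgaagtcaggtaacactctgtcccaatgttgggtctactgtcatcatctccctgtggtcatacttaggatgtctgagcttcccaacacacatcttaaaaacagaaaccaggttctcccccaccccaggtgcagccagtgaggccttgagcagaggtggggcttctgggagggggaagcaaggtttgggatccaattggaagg
These promoters ranged from CG-rich to CG-free. Fgf4 held 21 CG pairs, Utf1 14, Tdgf1 7, Eras 6 and Khdc3 0. The median of 32851 promoters of this length was 6 (quartiles 2 and 16), and 85.2% of them had no more CG pairs than Fgf4 against 7.9% for Khdc3. The GC box GGGCGG was found in Eras, Tdgf1, Fgf4 and Utf1, where 32.7% of all promoters hold it, searched as all motifs here on both strands. The Klf-type motif, GGGCGTGG or GGGTGTGG, was found in Tdgf1 and in 7.72% of all promoters. The TATA motif, TATAAA or TATATA, was found in Fgf4 (15.6% of all promoters), and the Sox motif, ACAAAG or ACAATG, in Eras (25.2%). The octamer ATGCAAAT, read by Oct3/4, was in none of the 5 and in 1.6% of all promoters. These are matches of letters in a window and were not measured as binding sites.

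All 13 probes were well above background on all 12 arrays, so every gene had a measured level in every clone. Levels are log2 signals relative to the 75th percentile of the array and are compared between clones for the same probe, never between genes. Where a gene has several probes, the brightest is given and is called its lead probe. The set of pluripotent-cell markers chosen for reference (Nanog, Pou5f1, Sox2, Zfp42, Esrrb and Fbxo15) was detected on all arrays for 6 of 6 genes. Mixl1 and Mesp1, markers of primitive streak and mesoderm, were well above background on none.

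**Figure D1:**
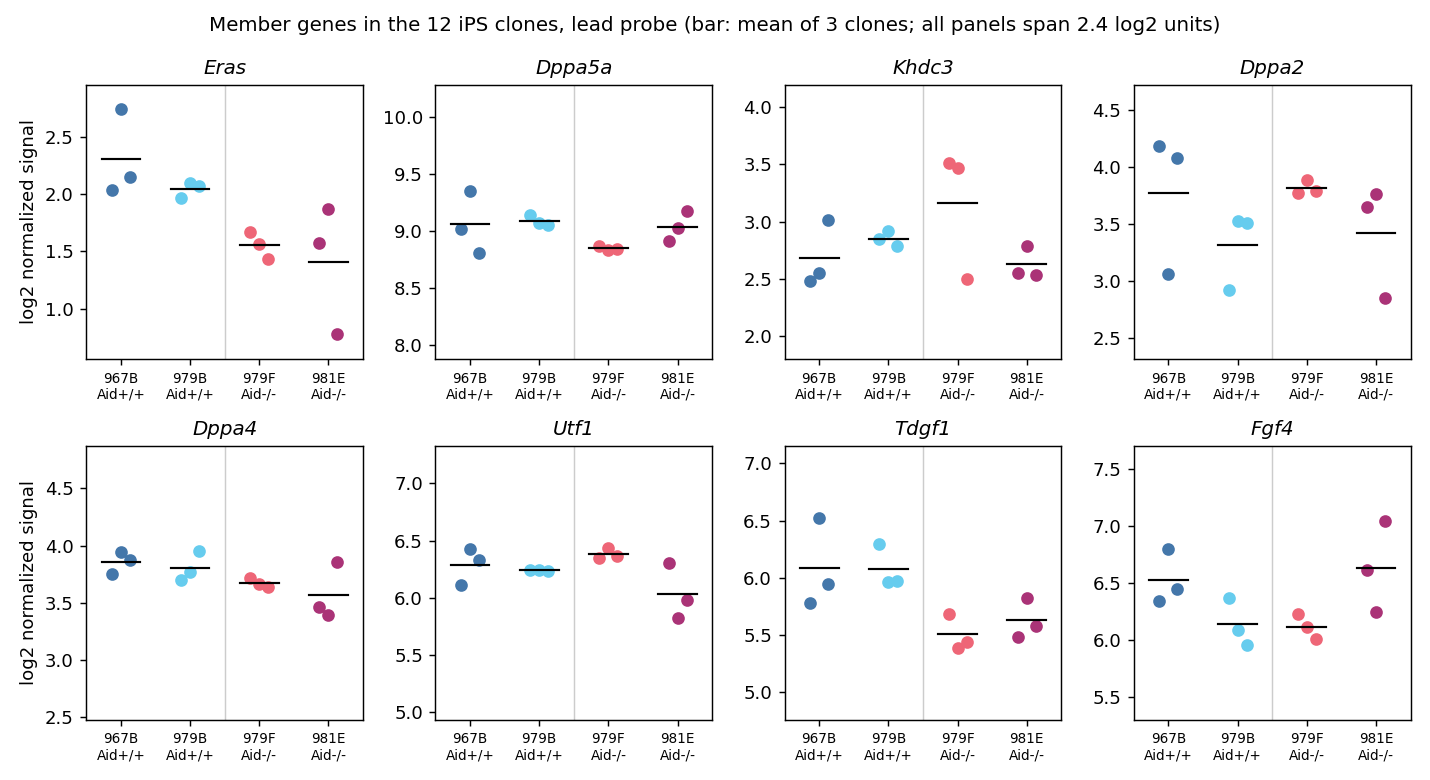
Log2 normalized signal (y axis) of the lead probe of each of the 8 genes in the 3 clones (points) of each series (x axis, with genotype), and the series mean (bar). The Eras points of the Aid+/+ series all lie at or above 1.97 and those of the Aid-/- series at or below 1.87, while the genotypes overlap in the other 7 panels.

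Eras and Tdgf1 had the largest genotype differences of the 8 genes, both lower in Aid-/- clones, and no gene passed the adjusted p over all probes. Of the 8 genes, 5 were lower and 3 higher in Aid-/- clones by their lead probes, with a median log2 fold change of -0.09 beside -0.06 over all probes detected on every array, and with quantile normalization Dppa5a and Utf1 turned to the higher side. In limma's test at an adjusted p under 0.05, 0 of 8 genes passed, where 0.0611% of all probes did. At an unadjusted p under 0.05, 2 of 8 passed by their lead probes in limma, beside 13.6% of all probes, and 3 of 8 did by the methods' t-test, which also gave 0 after Benjamini-Hochberg adjustment.

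Eras, the Ras-like GTPase, separated the genotypes. The Aid+/+ clones had 2.04, 2.74 and 2.16 (967B2, 967B4, 967B6) and 1.97, 2.10 and 2.08 (979B1, 979B3, 979B4). The Aid-/- clones had 1.67, 1.57 and 1.44 (979F1, 979F2, 979F3) and 1.57, 1.87 and 0.77 (981E1, 981E4, 981E5). Every Aid-/- clone was below every Aid+/+ clone, 981E4 and 979B1 being the closest pair, and such a separation in this direction was seen for 2.74% of the probes detected on all arrays. The highest clone was 967B4 and the lowest 981E5, 3.92-fold apart. Genotype means were 2.18 ± 0.28 (Aid+/+; SD, n = 6) and 1.48 ± 0.38 (Aid-/-; SD, n = 6), which is a log2 fold change of -0.70 (standard error 0.19, 95% interval -1.10 to -0.29, adjusted p = 0.141 in limma), or 1.62-fold. Of the detected probes, 1.14% had a log2 fold change as low as this. Without 967B4 and 981E5 together it was -0.44 (adjusted p = 0.0997). Within experiment 979 the difference was -0.49 (95% interval -1.08 to 0.11, limma's adjusted p = 0.441), and within slide 3 it was -0.64 (-1.24 to -0.04, adjusted p = 0.238). The study's own RT-PCR, over a larger set of clones, found no significant difference of Eras between the genotypes.

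Tdgf1, the Nodal co-receptor, had the other large difference, on all 3 of its probes. On the lead probe the Aid+/+ clones had 5.78, 6.53 and 5.95 (967B2, 967B4, 967B6) and 6.29, 5.96 and 5.98 (979B1, 979B3, 979B4). The Aid-/- clones had 5.68, 5.39 and 5.44 (979F1, 979F2, 979F3) and 5.48, 5.82 and 5.58 (981E1, 981E4, 981E5). The genotypes overlapped by a single pair on this probe, 981E4 lying above 967B2, and 967B4 and 979B1 were the highest clones. Genotype means were 6.08 ± 0.28 (SD, n = 6) against 5.56 ± 0.17 (SD, n = 6), a log2 fold change of -0.52 (standard error 0.13, 95% interval -0.81 to -0.22, adjusted p = 0.135 in limma). The other probes gave -0.57 (A_55_P2058540, adjusted p = 0.128) and -0.53 (A_55_P2183147, adjusted p = 0.166), and the 3 probes correlated over the clones with a Pearson r of 0.98 to 0.99, as probes of the same arrays. Within experiment 979 the lead probe differed by -0.58 (95% interval -1.02 to -0.13, limma's adjusted p = 0.229) and within slide 3 by -0.45 (-0.90 to -0.00, adjusted p = 0.27). Leaving out 967B4 and 981E5 together gave -0.43 (adjusted p = 0.163).

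Fibroblast markers had a higher median in Aid-/- clones, with overlapping ranges and 0 of 6 genes past the adjusted p. Of 6 such genes (Col1a1, Col1a2, Col3a1, Thy1, Postn and Twist2), chosen for the source and feeder cells, 3 were detected on all arrays and the others on 10 or 11. Their summed level is the log2 of their added unlogged signals, set mostly by Col1a2 and Thy1. It ran from 0.80 to 3.95 (median 3.42) among Aid+/+ clones and from 3.59 to 4.93 (median 4.51) among Aid-/- clones. It was lowest in 967B4, the clone with the highest Eras and Tdgf1, and highest in 979F3 (4.93). In 981E5, the clone with the lowest Eras, it was 3.59, within the Aid+/+ range. The summed pluripotent-cell markers, set mostly by Zfp42, Esrrb and Fbxo15, lay between 7.63 and 7.82 in Aid+/+ clones. They lay between 7.40 and 7.63 in 979F and between 7.88 and 8.24 in the 981E1 series. By this sum the Aid-/- series lay on opposite sides of the Aid+/+ clones. The part of fibroblast RNA in the Eras and Tdgf1 differences was not tested, and in bulk RNA fewer cells with a transcript and less transcript per cell cannot be told apart.

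**Figure D2:**
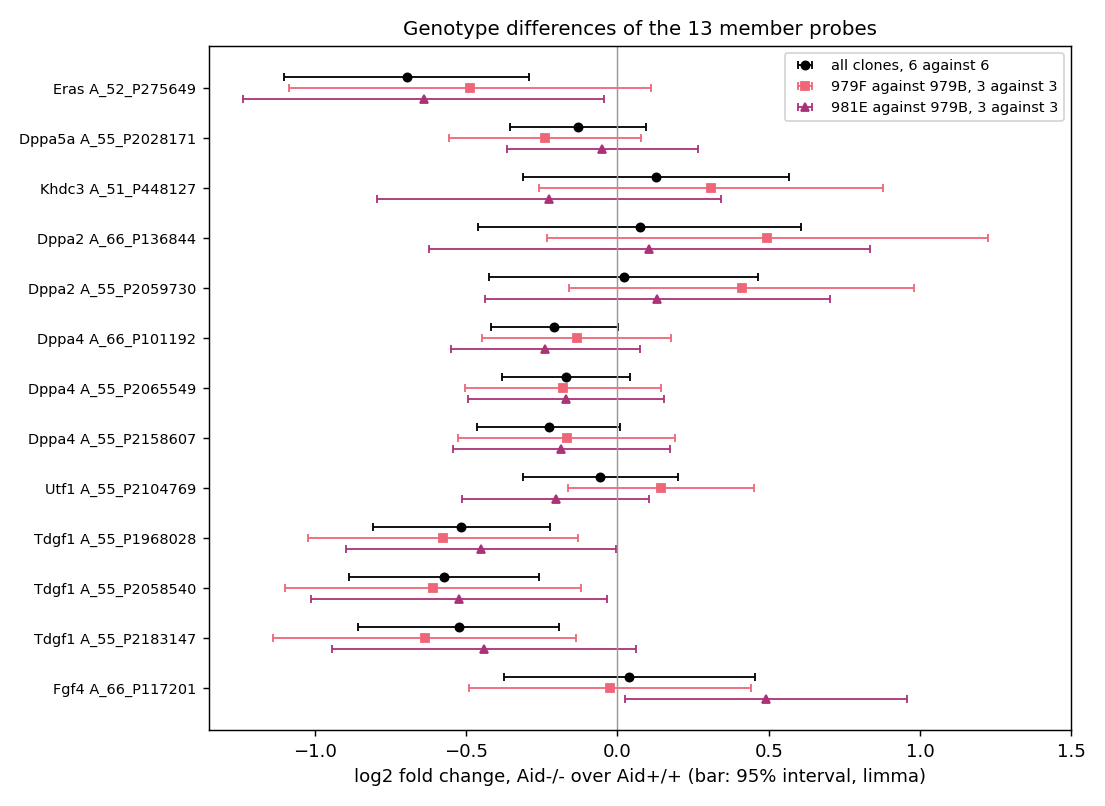
Log2 fold change of Aid-/- over Aid+/+ clones (x axis) for each of the 13 probes (y axis), over all clones, within experiment 979 and within slide 3, with 95% intervals from limma (bars). The intervals of Eras and of all 3 Tdgf1 probes over all clones lie below 0, and those of the other genes reach 0 or cross it.

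Fgf4, the autocrine ligand of the ERK pathway, did not follow the genotype. Aid+/+ clones ran from 5.96 over a median of 6.36 to 6.79, Aid-/- clones from 6.01 over a median of 6.24 to 7.04, so the lowest and the highest clone were of different genotypes and the ranges overlapped almost fully. The log2 fold change was 0.04 (standard error 0.19, 95% interval -0.37 to 0.45, adjusted p = 1 in limma). The SD of Fgf4 was 0.26 both within and between series, and the 4 series did not differ past the adjusted p (limma's adjusted p = 0.274). The 981E1 series had 6.61, 6.24 and 7.04 and the 979F clones 6.23, 6.11 and 6.01, all 3 below every clone of the 981E1 series, with a difference of -0.52 (95% interval -0.98 to -0.05, limma's adjusted p = 0.223). Within slide 3, Fgf4 was higher in the 981E1 series than in 979B by 0.49 (0.02 to 0.96, adjusted p = 0.248), and within experiment 979 the difference was -0.02 (-0.49 to 0.44, adjusted p = 0.994).

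By its lead probe Dppa2 was the member that varied most within a series, and Dppa4, its neighbour on chromosome 16 and partner protein, was among the steadiest. On its lead probe Dppa2 had 4.18, 3.06 and 4.07 in the 967B clones, 2.93, 3.53 and 3.51 in the 979B clones, 3.77, 3.88 and 3.79 in the 979F clones and 3.65, 3.77 and 2.85 in the 981E1 series. A low clone therefore occurred in 3 of the 4 series (967B4, 979B1 and 981E5), in both genotypes. The SD within series was 0.43, above that of 90.2% of detected probes, and the second probe gave the same pattern (Pearson r 0.98 over the 12 clones). Its SD within series was smaller, 0.33, just below the 0.35 of Eras. The genotype difference was 0.07 (95% interval -0.46 to 0.61, adjusted p = 0.978 in limma), and 0.02 (-0.42 to 0.47, adjusted p = 1) on the other probe.

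Dppa4 ran from 3.70 to 3.96 (median 3.82) among Aid+/+ clones and from 3.39 to 3.85 (median 3.65) among Aid-/- clones, with 4 Aid-/- clones below all Aid+/+ clones. Its log2 fold change was -0.21 (standard error 0.10, 95% interval -0.42 to 0.00, adjusted p = 0.37 in limma), and -0.17 and -0.23 on the other 2 probes (adjusted p = 0.484 and 0.39). The SD over the 12 clones was 0.17, above that of only 22% of detected probes. Across the clones Dppa2 and Dppa4 correlated with a Pearson r of -0.29 (permutation test, p = 0.357, adjusted p = 0.624) and a Spearman rho of -0.27 (p = 0.393, adjusted p = 0.786). No correlation of the adjacent genes was thus detected over the 12 clones, and r was -0.28 without the 2 clones farthest from the Dppa2 median.

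Utf1, the chromatin factor, was steady except in 2 clones of the 981E1 series. The Aid+/+ clones ran from 6.11 to 6.43 (median 6.24), and the 979B clones had 6.24, 6.24 and 6.23. The Aid-/- clones ran from 5.83 to 6.44 (median 6.33), the 979F clones having 6.35, 6.44 and 6.36 and the 981E1 series 6.30, 5.83 and 5.98. The log2 fold change between genotypes was -0.06 (95% interval -0.31 to 0.20, adjusted p = 0.915 in limma). Between the Aid-/- series, 979F was above the 981E1 series by 0.35 (0.04 to 0.66, limma's adjusted p = 0.211).

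On these arrays the KH-domain genes differed little between genotypes. Dppa5a had 9.02, 9.35 and 8.81 in the 967B clones and 9.14, 9.07 and 9.05 in the 979B clones, against 8.87, 8.84 and 8.84 in the 979F clones and 8.91, 9.02 and 9.18 in the 981E1 series. All 12 clones were within 1.46-fold, and the SD of 0.16 over the clones was above that of 18.6% of detected probes. Its log2 fold change was -0.13 (standard error 0.10, 95% interval -0.35 to 0.09, adjusted p = 0.648 in limma).

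Khdc3 was set apart by 2 clones. 979F1 and 979F2 had 3.51 and 3.47, and the remaining 10 clones lay between 2.48 and 3.01, the third 979F clone at 2.50 included. With 979F3 near the bottom of that range, the difference between 979F and the 981E1 series was 0.53 (95% interval -0.03 to 1.10, adjusted p = 0.306 in limma). The genotype difference was 0.13 (-0.31 to 0.57, adjusted p = 0.857). By RT-PCR, over a larger set of clones, the study itself reports higher Khdc3 (Ecat1) in Aid-/- iPS cells. For Eras and Dppa5a (Esg1) its RT-PCR gave no significant difference.

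Comparisons of the 4 series asked whether the genes followed the origin of the clones. Over the 4 series, limma's moderated F called 0 of 8 genes where 4.16% of all probes passed, with adjusted p between 0.158 (Eras) and 0.715 (a Dppa4 probe). At an unadjusted p under 0.05 it gave Eras and Tdgf1, 2 of 8 by lead probes, beside 21.9% of all probes. No gene passed in 979F against 979B (0.614% of probes passed), the 981E1 series against 979B (4.13%), 979B against 967B (0.711%) or 979F against the 981E1 series (3.02%). The first 3 contrasts share the 979B clones, and the last shares its clones with the first 2. At an unadjusted p under 0.05 these contrasts gave 1, 3, 0 and 2 genes by their lead probes. Beside them, 8111, 10115, 5849 and 10240 of all 55681 probes passed that threshold in limma. They were Tdgf1 for 979F against 979B, Eras, Tdgf1 and Fgf4 for the 981E1 series against 979B, and Utf1 and Fgf4 for 979F against the 981E1 series. Without 967B4 and 981E5, the second Dppa2 probe passed in 979B against 967B, at -0.78 (limma's adjusted p = 0.0383) where it was -0.50 with them (adjusted p = 0.567).

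The order of the series means differed from gene to gene. Eras and Dppa4 were ordered 981E1 series, 979F, 979B, 967B from low to high and Tdgf1 979F, 981E1 series, 979B, 967B, and Dppa5a 979F, 981E1 series, 967B, 979B. In these 4 genes both Aid-/- series lay below both Aid+/+ series, and the share of all probes with such an order was not counted. For Dppa5a the gap between the 981E1 series and 967B was only 0.02, and its genotype difference was 0.001 with quantile normalization. For Eras the gap between 979F and 979B, the neighbours of different genotype, was 0.49, and for Tdgf1 the gap between the 981E1 series and 979B was 0.45, while 979B and 967B were 0.01 apart. None of the neighbouring pairs tested differed past the adjusted p. Khdc3 ran 981E1 series, 967B, 979B, 979F, Dppa2 979B, 981E1 series, 967B, 979F, Utf1 981E1 series, 979B, 967B, 979F and Fgf4 979F, 979B, 967B, 981E1 series. Whether the genotype effect of experiment 979 differed from that of the other clones was tested as an interaction, which no gene passed (0.106% of all probes did). The lowest adjusted p was 0.522, for the second Dppa2 probe, with a difference of effects of 0.78 (95% interval -0.03 to 1.59).

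**Figure D3:**
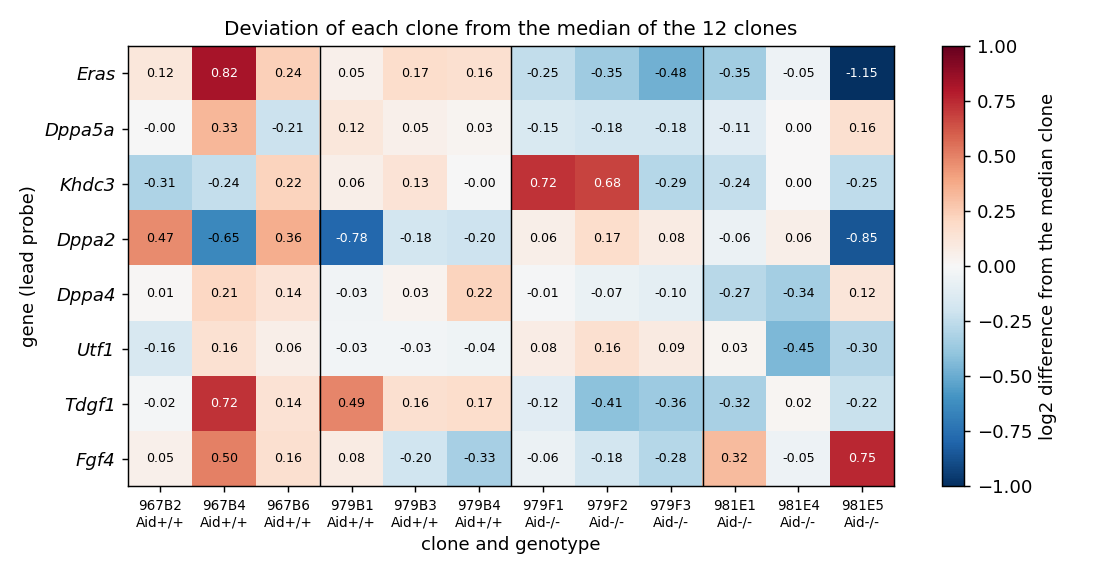
Log2 difference of each clone (x axis, by series and genotype) from the median of the 12 clones for the lead probe of each gene (y axis), as colour and number. Clone 967B4 is high for Eras, Tdgf1 and Fgf4 and low for Dppa2, and clone 981E5 is low for Eras and Dppa2 and high for Fgf4.

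Single clones carried much of the spread. 967B4 was the highest of the 12 clones for Eras, Dppa5a and Tdgf1, and lay 0.82 and 0.72 above the median clone for Eras and Tdgf1 and 0.65 below it (-0.65) for Dppa2. 981E5 was the lowest for Eras and Dppa2, at -1.15 and -0.85 from the median clone, and the highest for Fgf4, at 0.75. The median deviation of these clones over all detected probes was 0.05 and -0.01, a value that the scaling of each array holds near 0. Without both clones, 2351 of 55681 probes passed the adjusted p in 979B against 967B, where 396 passed with them. In 979F against 979B, 2585 passed without them and 342 with them. Their distance from the other clones was thus not limited to the 8 genes. The same clone was high for some of the 8 genes and low for others. Of the 6 pluripotent-cell markers, 967B4 and 981E5 had the highest Nanog (0.19 and -0.08) and the highest Zfp42 (6.35 and 7.06). They lay at opposite ends for Sox2 (4.27 and 3.43) and Fbxo15 (4.54 and 6.30), with Esrrb at 6.50 and 6.13 and Pou5f1 at 3.00 and 3.15. The summed level of 4 markers of primed epiblast (Fgf5, Otx2, Pou3f1 and Dnmt3b) ran from 6.26 to 7.42 among Aid+/+ clones. Among Aid-/- clones it ran from 5.74 to 7.32. It was lowest of its genotype in 967B4 and in 981E5, and 981E4, at 5.93, also lay below 967B4. Dnmt3b, the brightest of the 4, was at 5.51 in 967B4 and 4.68 in 981E5, with 981E4 at 5.32. Pou3f1 was also lowest of its genotype in both 967B4 and 981E5, and Fgf5 in 981E5 but not in 967B4. Otx2, at 4.62 and 4.65, lay above all 979B and 979F clones (3.68 to 4.04) and below 967B2 and 967B6 (4.95 and 5.08). The part of these markers in the values of 967B4 and 981E5 was not tested.

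Whether the genes varied together was examined over the 28 pairs of lead probes. Of these, 16 had a positive and 12 a negative Pearson r over the 12 clones, and 2 passed Benjamini-Hochberg adjustment of a two-sided permutation test. Tdgf1 and Eras had r = 0.79 (permutation p = 0.00231, adjusted p = 0.0444) and rho = 0.84 (p = 0.00115, adjusted p = 0.0161). Since Eras separates the genotypes, the values within a genotype stand beside this. They were r = 0.70 in Aid+/+ clones (exact permutation test, p = 0.142) and 0.31 in Aid-/- clones (p = 0.569), with rho = 0.20 and 0.60, and r = 0.68 in slide 3 (p = 0.156). On deviations from the series means r was 0.58 (exact permutation within series, p = 0.142). Within a genotype the relation of Tdgf1 and Eras was thus not detected, and 6 clones leave such a test little power. Without 967B4 and 981E5, the clones farthest from the Eras median, r was 0.83 (permutation p = 0.00365, adjusted p = 0.102).

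Dppa5a and Dppa2 ran in opposite directions. Their r was -0.78 (permutation p = 0.00317, adjusted p = 0.0444) and their rho -0.85 (p = 0.00078, adjusted p = 0.0161). Within Aid+/+ clones r was -0.78 (exact permutation test, p = 0.0625), within Aid-/- clones -0.88 (p = 0.0347), in slide 3 -0.84 (p = 0.0319) and on deviations from the series means -0.83 (exact permutation within series, p = 0.0301). None of these 4 passed when adjusted over the 28 pairs (adjusted p between 0.249 and 0.438). The clones with the 3 lowest Dppa2 levels, 981E5, 979B1 and 967B4, were those with the 3 highest Dppa5a levels. Without 967B4 and 967B6, the clones farthest from the Dppa5a median, r was -0.71 (permutation p = 0.0187, adjusted p = 0.262). With quantile normalization r was -0.37 (permutation p = 0.241), so the relation of Dppa5a and Dppa2 depended on the scaling of the arrays.

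**Figure D4:**
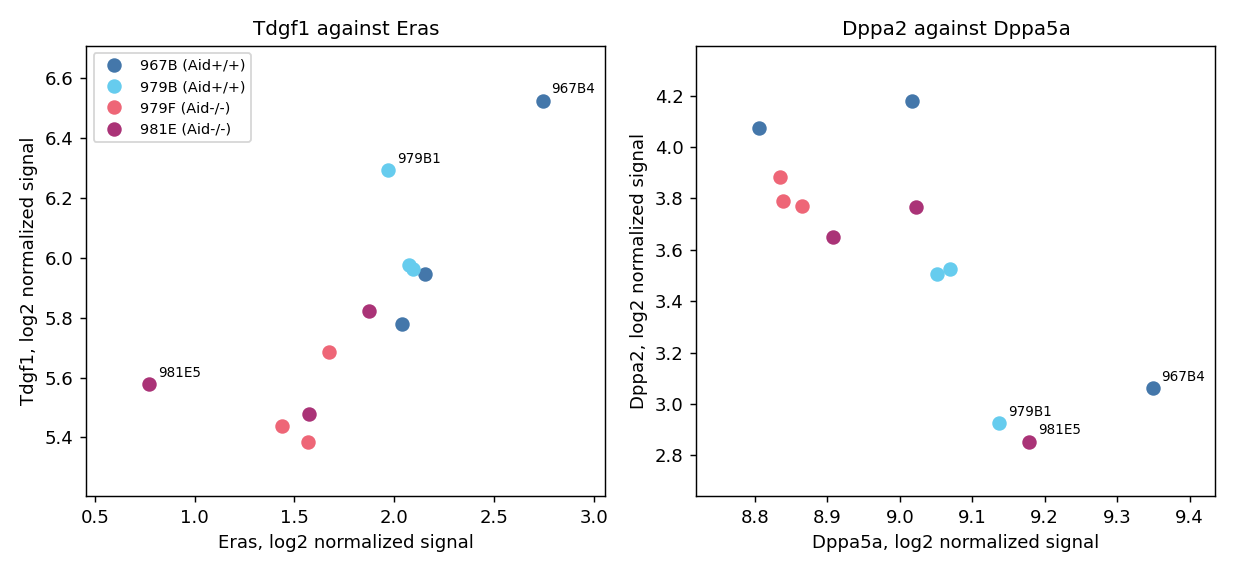
Log2 normalized signals of Tdgf1 against Eras (left) and of Dppa2 against Dppa5a (right), 1 point for each of the 12 clones, coloured by series. Tdgf1 is higher where Eras is higher, with the Aid-/- clones at the lower left, and Dppa2 is lower where Dppa5a is higher in both genotypes.

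The genes whose lead probes were most alike over the 12 clones were taken from 13507 others detected on all arrays, as a description over clones that share series and slides. For Eras they were Gatb, Ppil2 and Arntl, with a Pearson r of 0.96 to 0.97. For Tdgf1 they were Ice2, Mtg1 and Uqcrfs1 (0.96 to 0.98), and for Fgf4 they were Pfkm, Nmrk1 and Stag3 (0.95). For Dppa2, Armc8 and Timm22 were among them (0.970 and 0.965), for Dppa4 Tprgl, Cfdp1 and Zfp940 (0.91 to 0.92) and for Utf1 Trim27, Arid3b and Fnbp1 (0.90 to 0.91). For Dppa5a they were H2ac6, Sat1 and Acot13 (0.95 to 0.96). Khdc3 had no close counterpart, its 3 most alike genes Lalba, Wnk4 and Aurkb having r of 0.75 to 0.79. None of the 8 genes was among the 3 most alike of another.

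Genes that work with the 8 were described from 7 lists of 61 genes. In the genotype comparison 0 of 61 passed the adjusted p in limma, beside the 0.0611% of all probes. The median log2 fold change of the other ES-cell-associated transcripts was -0.18 over 10 genes, with 7 below 0 and 3 above. The lowest of them were Sox15, a Sox factor of ES cells (-0.45, adjusted p = 0.496), and Tdrd12, a germline Tudor protein (-0.36, adjusted p = 0.569). For the Oct-Sox regulators it was -0.06 over 6 genes, with Sox2 at -0.17 (adjusted p = 0.653) and Nanog at -0.11 (adjusted p = 0.909). In 979F against 979B the median of the other ES-cell-associated transcripts was -0.34, 9 of 10 below 0 and 0 past the adjusted p, beside -0.03 over all detected probes. In the 981E1 series against 979B it was 0.08, 4 below 0 and 6 above, beside -0.07. The summed fibroblast markers were between 4.41 and 4.93 in 979F, between 3.40 and 3.95 in 979B and between 3.59 and 4.61 in the 981E1 series, and their part in these medians was not tested.

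On the Tdgf1 side, 14 genes of Nodal and Cripto signalling had a median of -0.03, with 8 below 0 and 6 above. Cfc1 (Cryptic), the other Nodal co-receptor of the family, had -0.59 (adjusted p = 0.376 in limma) and Lefty2, a Nodal antagonist and target, -0.50 (adjusted p = 0.348). On the Fgf4 side, 14 genes of FGF4 and ERK signalling had a median of 0.07, and 1 passed in the series comparisons. Of all probes, 0.711% passed in 979B against 967B and 4.16% over the 4 series. A probe of Etv4, an ERK-responsive ETS factor, was at 0.60 ± 0.06 in 979B against 1.83 ± 0.52 in 967B (SD, n = 3 each), lower by a log2 difference of -1.23 (adjusted p = 0.0432), and passed over the 4 series (adjusted p = 0.0313). The lead probe of Etv4 gave -0.92 (adjusted p = 0.154). The Etv4 call held in 2 of 12 fits with a clone left out (those without 967B2 and 967B4), with adjusted p from 0.0157 to 0.143.

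On the Eras side, 10 genes of the Ras and PI3 kinase group had a median genotype difference of -0.01, with 5 below 0, 5 above and 0 past the adjusted p in limma.

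For Khdc3, 4 of 5 genes of the subcortical maternal complex were detected on all arrays, with a median genotype difference of -0.11. Ooep, which lies next to Dppa5a on chromosome 9, had -0.33 (adjusted p = 0.436 in limma) and Zbed3, detected on 8 arrays, -0.14 (adjusted p = 0.953). The 5 targets and partners of Dppa2 and Dppa4 had a median of -0.20, 4 below 0 and 1 above. Prmt1, an arginine methyltransferase, was higher in 979F than in the 981E1 series by 0.61 (adjusted p = 0.0431), where 3.02% of all probes passed. The Prmt1 call held in 1 of 12 fits with a clone left out, and its other probe gave 0.59 (adjusted p = 0.0681). Mael, a germline gene chosen after its values were seen, had a genotype difference of -0.55 (adjusted p = 0.115), with 1.12 to 1.57 in 979F and 1.26 to 1.63 in the 981E1 series against 1.65 to 2.32 in 967B and 1.86 to 2.17 in 979B. Among the 33 cell type markers, 1 passed a comparison, that of 979F with the 981E1 series, which 3.02% of all probes passed. Nes, a neural progenitor filament, was lower in 979F than in the 981E1 series by -0.70 (adjusted p = 0.0323), in 4 of 12 fits with a clone left out, and by -0.65 without 967B4 and 981E5 together, which did not pass (adjusted p = 0.058).

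**Figure D5:**
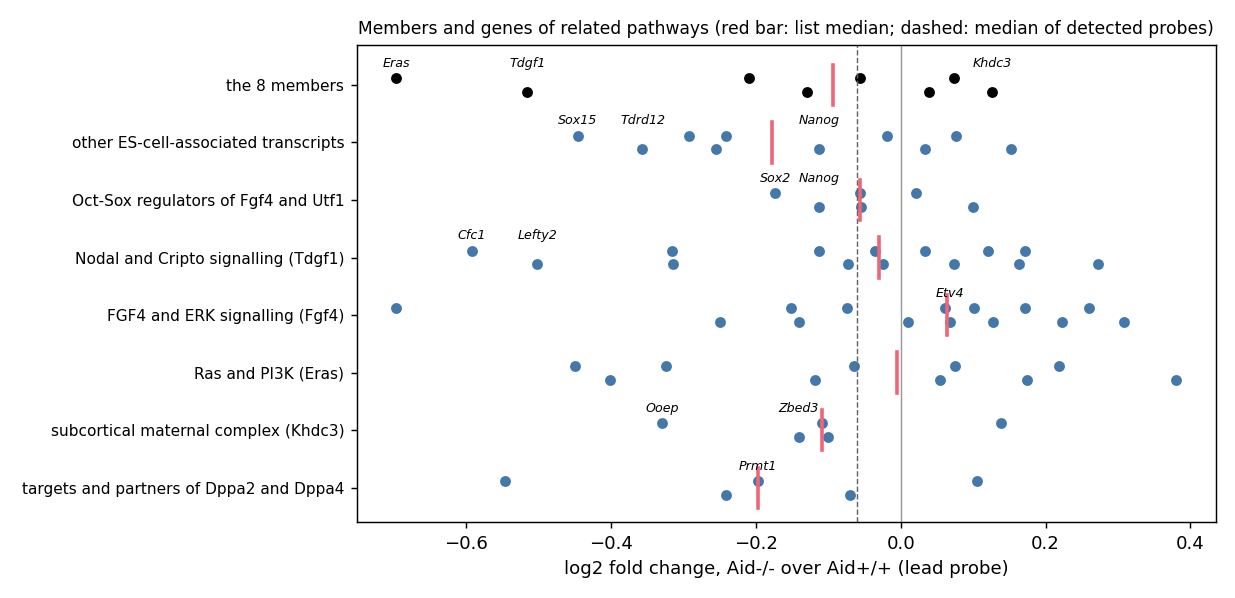
Log2 fold change of Aid-/- over Aid+/+ clones (x axis) for the lead probe of each gene (points) of the 8 genes and of 7 lists of related genes (y axis), with the median of each list (red bar) and of all probes detected on every array (dashed line). List medians lie between -0.20 and 0.07, and Eras and Tdgf1 are at the low end of the 8 genes.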

How the data were processed

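RNA of 12 clones, 6 Aid+/+ and 6 Aid-/-, was measured by the authors on 1-colour arrays and read with Agilent Feature Extraction 10.7.3.1. The processed spot intensity was used as deposited (corrected for background and spatial trends by the authors' software, not scaled between arrays). The median spot and background intensity, as deposited, served as an alternative, and so did the authors' deposited log2 values, made in GeneSpring GX and also set relative to the 75th percentile, whose median distance from the values used here was 0.00678 or less per array.

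Spots flagged as outliers by the scanner software were dropped along with controls, log2 intensities were averaged per probe, and each array was set relative to its own 75th percentile. Accessions were named through the RefSeq table of GRCm38.p6, which matched 27235 probes to 20660 genes. The array design is on mm9, so no gene coordinates were taken from that table, and the coordinates of the promoters are those of GRCm38.p6. The lead probe of a gene is that well above background on most arrays, and the brightest among equals. Signal from near-identical copies of a gene cannot be told apart from that of the gene.

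Genotypes, and series as contrasts in a fit with a mean per series, were compared in limma 3.58.1 (R 4.3.3, lmFit and eBayes, no covariate, prior degrees of freedom 2.04 and 2.03) over 55681 probes with Benjamini-Hochberg adjustment. Correlations used 100000 permutations, or all 720 orders of 6 clones, or all 1296 orders within series. They ran in scipy 1.17.1 under Python 3.11.15, and tables and plots were made in pandas 2.3.3, numpy 2.4.6 and matplotlib 3.10.9. The fits were tested on simulated arrays.

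The members and the lists were chosen with earlier results of these data known. All probes of the 8 genes are named, and genes of the lists where a probe passed the adjusted p over all probes in any comparison, and otherwise the 2 with the largest genotype difference in a list. Alternatives were another background correction (normexp, offset 50, on median signals), quantile normalization, a percentile of detected probes alone, the deposited log2 values, filters on dim probes, an intensity trend with robust estimation, the methods' t-test, slide or series as a block, 1 mean per series, experiment 979 or slide 3 alone, and leaving out each clone. Leaving out 967B4 and 981E5 together was added after the data were seen. Some genes that these rules name are not reported here. The RT-PCR and methylation data of the study were not analysed here.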

Additional observations from a re-analysis of the deposited data

Results flagged for a closer look

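Each genotype holds 6 clones, and a clone was singled out where the distance to its neighbour took a larger share of the genotype's range than Dixon's 95% critical value. Of 26 groups (13 probes in 2 genotypes), 4 held such a clone, and by the critical value alone chance singles out about 1 in 20 groups. The share of all detected probes with such a clone on these arrays was not counted. Whether 4 of 26 is more than other genes show in the same clones was therefore not tested. Probes of a gene share their arrays, so the Dppa2 probes are not independent.

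Eras in clone 967B4 was at 2.74, where the other Aid+/+ clones lay between 1.97 and 2.16. The dimmest of the 3 Dppa4 probes (A_55_P2158607) was at -0.41 in the same clone, with the others between -0.84 and -0.72. Dppa2 in clone 981E5 was at 2.85, where the other Aid-/- clones lay between 3.65 and 3.88, and its second probe was at 0.675 there, with the others between 1.27 and 1.39. No explanation was tested for these values.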

How the results depend on the processing

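Over 7 comparisons and 147 combinations of a comparison with an alternative, a call of any of the 8 genes occurred in 1, the comparison of 979B with 967B without clones 967B4 and 981E5, where 1 gene passed (Dppa2, by its second probe), and that fit left 2 clones in 967B. The lowest adjusted p in limma for the genotypes was 0.0567, with only probes detected on all arrays. The Eras difference ranged from -0.78 to -0.44 (adjusted p 0.0638 to 0.246) and that of Tdgf1 from -0.58 to -0.38 (0.0599 to 0.27) over 25 alternatives each, without a change of sign. Dppa4 also kept its sign, from -0.26 to -0.14. Small differences turned sign. Dppa5a was at 0.001 with quantile normalization, Khdc3 at -0.226 with slide as a fixed block, and Utf1 at 0.087 with quantile normalization and 0.0 with the percentile over detected probes. With each clone left out in turn, Dppa2 ranged from -0.05 to 0.227, Utf1 from -0.101 to 0.021 and Fgf4 from -0.094 to 0.132. Without 967B4 and 981E5 together Utf1 was at 0.023 and Fgf4 at -0.003. The cause of these turns was not tested.

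Of the 28 pairs of genes, 2 passed over the 12 clones and 0 within Aid+/+ clones, within Aid-/- clones, within slide 3, on deviations from the series means, with quantile normalization or without the 2 clones farthest from the median. The subsets hold fewer clones. No paired analysis was possible because the last digit of a clone name numbers a colony and the replicate numbers only count clones, so nothing ties a single Aid+/+ clone to a single Aid-/- clone, although 3 clones of each genotype share experiment 979 and 3 of each share slide 3. With 6 clones a genotype, in series that mostly lie on slides of their own, genotype, series and slide cannot be told apart beyond experiment 979 and slide 3, and the number of arrays limits the size of a difference that could be called.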
